A study of Mus musculus with 4 samples.

Results

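Type I interferon-stimulated genes were followed gene by gene in mouse splenocytes. The list holds 50 genes that cells switch on when interferon alpha or beta binds its receptor. Members were chosen by symbol, and 49 of the 50 were matched to a gene among the 31053 genes measured. Mx2 was not analysed here. The 49 members gave 188593 UMIs (unique molecular identifiers, each standing for 1 captured RNA molecule) in the annotated cells of 4 libraries.

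Type I interferons signal through the receptor pair Ifnar1 and Ifnar2 to the kinases Jak1 and Tyk2, which activate transcription factors, Stat2 among them. Stat2 acts with Irf9 in a complex that binds a short promoter element, the interferon-stimulated response element (ISRE), and raises transcription of a broad set of genes. The products include RNA sensors, enzymes that degrade or modify RNA, proteins that block virus entry and release, and the factor Irf7, which extends the response. In the resting spleen most lymphocytes carry a low tonic level of this program, and plasmacytoid dendritic cells are the specialised producers of the ligands.

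Each library is a droplet single-cell RNA library of CD45+ spleen cells from C57BL/6 mice, and there is 1 library per group. The first group is young wild type (WT) and the second is aged WT. The other 2 are also aged: one lacks miR-146a in the whole body, and the other lacks miR-146a and, in T cells, also miR-155 (here the double knockout). Both microRNAs are regulators of immune activation, miR-146a as a brake on NF-kB signalling and miR-155 as a promoter of T and B cell responses. The WT animals were miR155 fl/fl, so their miR-155 gene was floxed and intact. Aged mice were 15 months old and each aged library pooled 3 to 6 of them. The sources used here give neither the age and pool size of the young mice nor the Cre driver of the T cell deletion, nor whether the single knockout was floxed too. The sort kept live CD45+ cells that scattered little light forward and sideways, as small cells without granules do. The host gene of miR-155, Mir155hg, was at 12.5 CPM (UMIs per 1000000 UMIs of those cells) in T cells of the double knockout and at 17.0 CPM in those of the miR-146a knockout. The part of it that was deleted is not given, so these values do not check the label, and mature microRNAs are not captured by polyA libraries.

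The 4 libraries held 17561683 to 22399381 UMIs in 5702 to 7626 barcodes. The authors named the cell type of 24143 of 27577 barcodes, and the annotated cells had a median of 2054 to 2650 UMIs. Their names were grouped into T cells (1514 to 2904 cells per library), B cells (2473 to 3719), myeloid cells (191 to 919) and NK cells (49 to 228). T cell marker genes summed to 4383 to 5371 CPM in the T class, and B cell marker genes to 7039 to 8436 CPM in the B class. In the NK class, NK marker genes summed to 17336 CPM in young WT and 9745, 6549 and 8958 CPM in the aged libraries, and T cell marker genes to 913, 1182, 1157 and 1504 CPM. About 3% of barcodes occurred in another library too (176 to 231 per library). A single library stands for each group, so no test between groups was possible. Intervals are at 95% and hold counting error alone; variation among mice, pools and preparations is outside them. Each difference below is one between these libraries. It is called where it reached 1.5-fold after 1 UMI was added to each sum. Genes needed 50 UMIs in a class over the 4 libraries to be counted, and the share of all genes called by that rule is given beside each count.

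To show the ISRE, the 250 bases upstream of the start site are printed for 4 members that hold its core and on which the results turn. They were taken from RefSeq for GRCm38.p6 and run 5′ to 3′ in the direction of the gene. Capitals mark the ISRE core (GAAA, any 2 bases, GAAA) on either strand. On the other strand it reads TTTC, any 2 bases, TTTC. The Isg15 window is chr4:156200819-156201068 on the minus strand, just before the gene of a ubiquitin-like protein. The Ifit3 window is chr19:34583279-34583528 on the plus strand, before the gene of an RNA-binding antiviral protein. The Rsad2 window is chr12:26456453-26456702 on the minus strand, before the gene of viperin, which makes a chain-terminating nucleotide. The Ifi208 window is chr1:173673415-173673664 on the plus strand, before a gene of the PYHIN family, whose members include nuclear and cytosolic DNA sensors.
Isg15: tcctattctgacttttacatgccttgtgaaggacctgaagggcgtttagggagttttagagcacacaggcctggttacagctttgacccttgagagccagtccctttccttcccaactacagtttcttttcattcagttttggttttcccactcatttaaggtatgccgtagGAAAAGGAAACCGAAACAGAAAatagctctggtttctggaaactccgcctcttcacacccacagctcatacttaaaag
Ifit3: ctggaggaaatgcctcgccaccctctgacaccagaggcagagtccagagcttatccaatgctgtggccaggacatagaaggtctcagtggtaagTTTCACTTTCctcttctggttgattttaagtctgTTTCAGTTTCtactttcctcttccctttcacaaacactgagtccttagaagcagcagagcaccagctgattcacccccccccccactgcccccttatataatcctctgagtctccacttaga
Rsad2: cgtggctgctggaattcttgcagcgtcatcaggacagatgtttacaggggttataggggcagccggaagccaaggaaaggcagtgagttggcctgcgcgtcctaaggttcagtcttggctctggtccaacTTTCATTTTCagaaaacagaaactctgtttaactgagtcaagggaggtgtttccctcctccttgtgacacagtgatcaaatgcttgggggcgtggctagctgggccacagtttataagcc
Ifi208: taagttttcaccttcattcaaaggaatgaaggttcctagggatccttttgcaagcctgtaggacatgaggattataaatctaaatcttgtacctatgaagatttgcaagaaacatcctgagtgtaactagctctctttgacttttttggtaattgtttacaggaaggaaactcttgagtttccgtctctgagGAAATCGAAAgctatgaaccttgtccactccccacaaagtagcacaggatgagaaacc

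Of the 49 members, 39 had a RefSeq promoter window of 300 bases (250 before to 50 after the start), and 21 of those (53.8%) held at least 1 ISRE core on either strand. Over all 27018 genes with a window the share was 3.99%. Irf7, Irf9, Sp100, Slfn2 and Samhd1 were among the members whose windows held none. The STAT dimer core TTCNNNGAA was found in 7 of the 39 (17.9%), against 9.55% of all windows. The ISRE cores of Isg15 overlap each other and run as 1 stretch from 78 to 57 bases before the start. Related genes shared their sites, as the 16-base stretches around the core show, written here on the strand that reads GAAA, with the core in capitals. Ifit3 and Ifit3b had identical pairs at different distances from the start, and 3 PYHIN genes shared a core.
Ifit3, far site: gagGAAAGTGAAActt
Ifit3, near site: gtaGAAACTGAAAcag
Ifit3b, far site: gagGAAAGTGAAActt
Ifit3b, near site: gtaGAAACTGAAAcag
Ifi203: gggGAAATCGAAAgct
Ifi208: gagGAAATCGAAAgct
Ifi213: gagGAAATCGAAAgct
A match is a stretch of letters and was not measured as a bound site. The 3 PYHIN genes with this shared core are followed separately below because their levels in the 4 libraries differed in size.

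Summed over the 49 members, the list made up 3267, 3141, 3705 and 3562 CPM of T cells in young WT, aged WT, miR-146a knockout and double knockout, the order used throughout. In B cells it made up 3135, 2555, 2196 and 2381 CPM. Myeloid cells held 5052, 4462, 2275 and 2368 CPM, and NK cells 2273, 1868, 2153 and 2551 CPM. Young WT was thus the highest library in B and myeloid cells, while in T cells the knockouts were highest. The NK values are not ranked, since the markers of that class moved with the libraries. The sum is dominated by a few abundant members. Ifi27l2a, a small membrane protein strongly induced by interferon, supplied 18.5% of the list's UMIs, and with Sp100, Slfn2, Samhd1 and Ifi203 supplied 57.8%. For this reason the members are also given one at a time.

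Among named types the list was highest in Ly6c+ monocytes of young WT, at 8824, 6509, 4439 and 5200 CPM over the 4 libraries. Within T cells the Mem Cd4 type held 4788, 3886, 4267 and 4417 CPM and the Nai Cd8 type 2936, 2540, 2850 and 2745 CPM. Within B cells the Trans B type (transitional, recent arrivals from the bone marrow) held 4369, 3284, 3443 and 3479 CPM. Germinal centre centroblasts held 2609, 1991, 1832 and 2009 CPM. Granulocytes (Gran) held 4426 CPM in the 37 cells of young WT and 1308 CPM in the 16 cells of aged WT, which had 50 list UMIs. They held 1296 and 1267 CPM in the knockouts. The median depth of granulocytes was 743, 1351.5, 4213 and 4286 UMIs, so these cells differed in depth between the libraries. In each library of B cells the Trans B type was above the other B types.

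**Figure D1:**
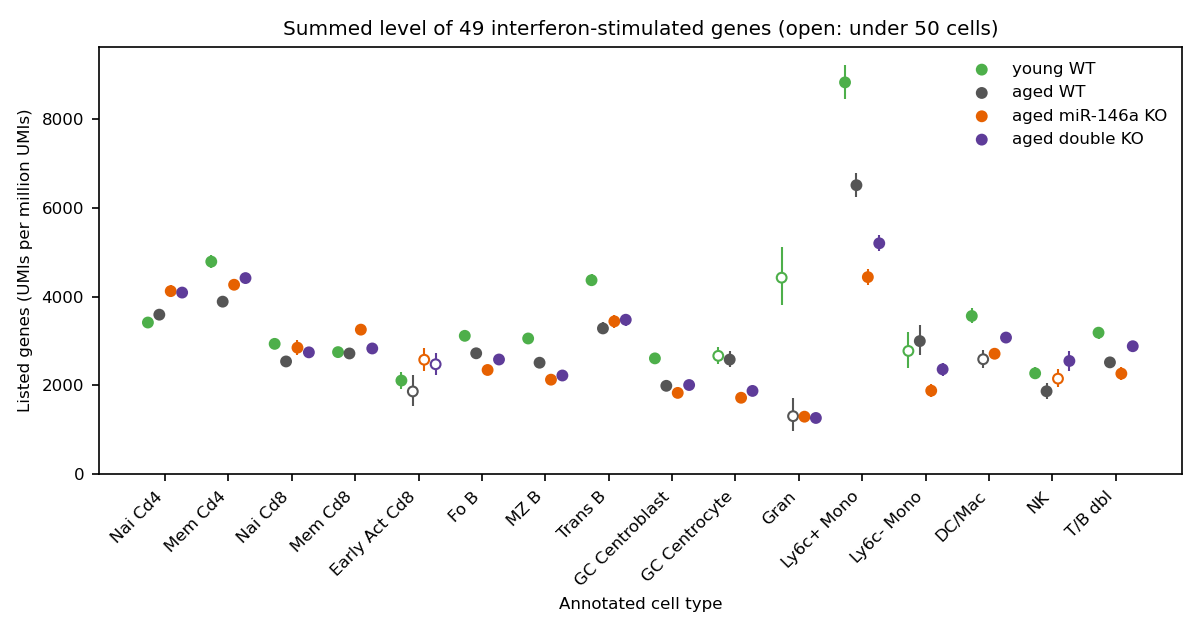
Summed level of the 49 interferon-stimulated genes (CPM) for each cell type and library, with exact Poisson intervals and open symbols for types under 50 cells. Ly6c+ monocytes are highest in young WT (8824 CPM), and the B cell types sit highest in young WT.

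In B cells, the list was lower in aged WT than in young WT by a ratio of 0.815 (0.800 to 0.830). Of the 42 members that passed the filter, 14 were lower by at least 1.5-fold, where 3.1% of all 10173 genes were, and 0 were higher, where 3.89% were. The interval lay wholly below 1 for 22 members and wholly above 1 for 0. The median log2 ratio was −0.31 for the members and −0.02 for all genes. Lower members came from most roles, from Irf7 and Usp18 to the Oas, Ifit, schlafen and PYHIN genes, and the interval crossed 1 for Ifih1 and Slfn1. Oas1g, Oas2, Mx1, Ifi44, Parp12, Ifi204 and Phf11d had too few UMIs in B cells to be counted.

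Irf7, the factor that amplifies the response, was at 24.0, 14.6, 10.1 and 18.1 CPM in B cells. Young WT was highest and the miR-146a knockout lowest, with ratios of 0.610 (0.483 to 0.770) for age and 0.687 for the knockout against aged WT. Irf9 was at 65.1, 64.7, 66.6 and 65.0 CPM and Stat2 at 42.8, 45.7, 33.5 and 37.3 CPM in the same cells. Irf9 and Stat2 thus did not share the profile of Irf7 between the WT libraries. Isg15 was at 29.0, 22.8, 19.6 and 21.0 CPM, and Usp18, the protease that removes ISG15 from its targets and restrains the receptor, at 7.96, 5.11, 4.90 and 5.32 CPM. Both were highest in young WT.

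The RNA-acting families of B cells had a similar order of libraries. The Oas and Oasl genes summed to 30.8, 19.6, 13.4 and 16.2 CPM, a ratio of 0.638 (0.521 to 0.781) for age. Their family includes enzymes that make the second messenger that activates RNase L. The summed Ifit genes, which bind foreign RNA ends, were at 42.5, 28.5, 18.04 and 21.4 CPM, a ratio of 0.670 (0.565 to 0.793). Both sums had young WT as the highest library and the miR-146a knockout as the lowest. Within them, Oas1a was at 6.78, 2.67, 3.74 and 3.66 CPM and Ifit3 at 16.7, 11.9, 4.90 and 8.86 CPM. Rsad2 was at 4.17, 1.39, 0.773 and 1.06 CPM, an age ratio of 0.334 (0.157 to 0.666). For Oas1a and Rsad2 the 3 aged libraries lay near each other and below young WT.

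Ifi27l2a in B cells was at 646, 358, 366 and 379 CPM, an age ratio of 0.554 (0.529 to 0.579). The 3 aged libraries lay close together, below young WT. It was lower in aged WT than in young WT in follicular (Fo B, 561 and 321 CPM), marginal zone (MZ B, 566 and 326), Trans B (1085 and 569) and GC Centroblast cells (643 and 292). Other abundant members differed less. Samhd1, a dNTP-cleaving enzyme that limits reverse transcription, was at 326, 333, 254 and 286 CPM, and the nuclear body protein Sp100 at 369, 359, 282 and 308 CPM. For these 2 genes the WT libraries were close and both knockouts were lower. The Parp genes summed to 70.7, 73.6, 63.2 and 69.5 CPM and the Phf11 genes to 75.5, 73.3, 74.6 and 79.3 CPM.

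Ifi208 had the lowest ratio between aged and young WT B cells of the members counted. Its level was 24.3, 1.98, 2.45 and 2.36 CPM, so that young WT stood apart from the 3 aged libraries, and the age ratio was 0.0814 (0.0464 to 0.134). In Fo B cells it was at 30.6, 1.59, 3.31 and 2.03 CPM and in MZ B cells at 25.5, 2.47, 3.74 and 4.92 CPM. The related Ifi213 was at 25.6, 13.9, 13.4 and 15.8 CPM, and Ifi203 at 297, 248, 221 and 230 CPM. The 3 genes share the promoter core printed above, and their age ratios ran from the lowest of the list for Ifi208 to near that of the whole list for Ifi203. PYHIN genes are close copies of each other, and how reads shared by them were assigned was not tested.

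In the miR-146a knockout, the list in B cells was at a ratio of 0.860 (0.842 to 0.877) to aged WT. Lower members numbered 7 of 42, against 3.57% of all genes, and they were Oas3, Oasl1, Oasl2, Ifit3, Ifit3b, Rsad2 and Rtp4, with an interval that crossed 1 for Oas3 and Rsad2. Ifih1, the RNA sensor MDA5, was higher (1.05 to 2.45 CPM), against 6.82% of all genes, and its values are close to the counting limit. The median log2 ratio was −0.20 for the members and −0.04 for all genes. Ifit3 had a ratio of 0.413 (0.277 to 0.605) and Oasl1 of 0.481 (0.291 to 0.773). Rtp4, a chaperone of receptors induced by interferon, was at 27.0, 17.2, 11.3 and 15.1 CPM, a ratio of 0.659 (0.501 to 0.864).

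B cells of the double knockout were slightly above those of the miR-146a knockout, at a list ratio of 1.08 (1.06 to 1.11). Irf7, Oas3, Oasl1, Ifit3 and Ifit3b were higher, 5 of 42 members against 2.21% of all genes. Ifit2 alone was lower, 1 of 42 against 2.51%. The interval crossed 1 for Oas3, Oasl1, Ifit3b and Ifit2. Irf7 had a ratio of 1.80 (1.36 to 2.39) and Ifit3 one of 1.81 (1.21 to 2.75). By type, the Irf7 ratio was 3.02 (1.48 to 6.66) in GC centroblasts and 1.76 (1.08 to 2.96) in Fo B cells. Set against aged WT, which is also the reference of the single knockout, the double knockout had 1 member higher (Ifih1, 6.26% of all genes) and 1 lower (Ifit2, 3.23%). The list ratio there was 0.932.

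Markers of other cells moved with these B cell comparisons. Granulocyte marker genes summed to 10.4, 15.2, 583 and 747 CPM in B cells, and erythroid marker genes to 17.2, 28.6, 576 and 516 CPM, so both were low in the WT libraries and high in both knockouts. Plasma cell markers summed to 134, 188, 274 and 311 CPM. Immediate early genes, which tissue dissociation induces, summed to 199, 327, 299.6 and 271 CPM, lowest in young WT. Their part in the age and knockout ratios was not tested. Between the WT libraries the list was lower in aged WT in Fo B, MZ B, Trans B and GC centroblast cells taken one at a time, as the values by type show.

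**Figure D2:**
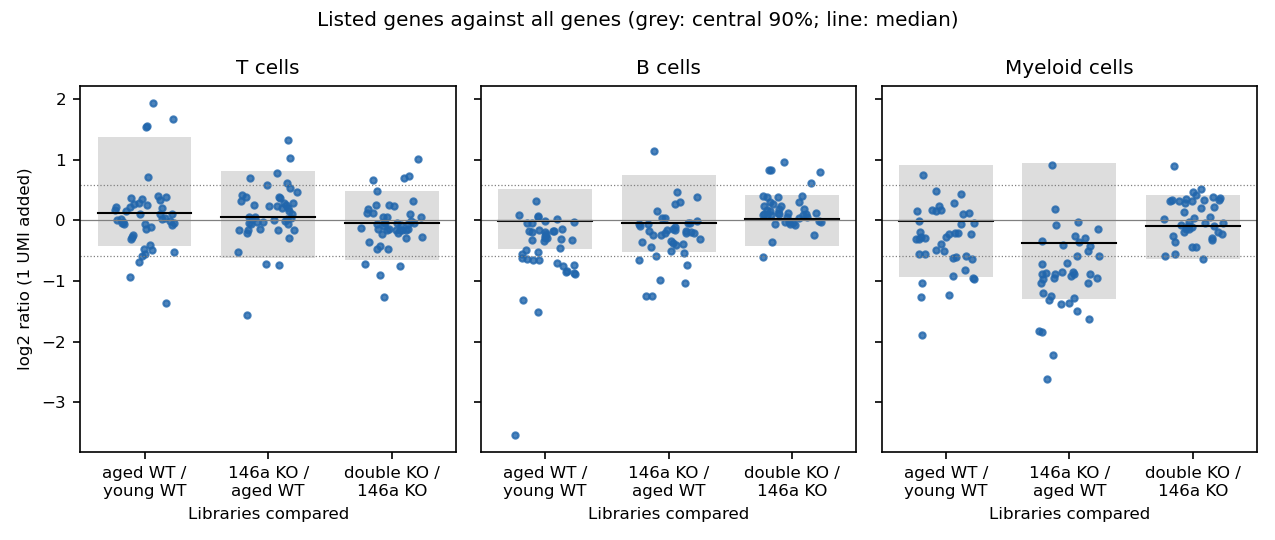
Log2 ratio of each member in T, B and myeloid cells (panels) for the 3 comparisons (positions along each panel), with the grey band holding the central 90% of all genes. In B cells 14 of 42 members are at least 1.5-fold lower in aged than in young WT, and in myeloid cells 29 of 41 are lower in the miR-146a knockout than in aged WT.

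In T cells, the members of the list had no common direction with age. The list ratio of aged to young WT was 0.962 (0.942 to 0.981). The median log2 ratio was 0.03 for the 46 members counted and 0.12 for all 9888 genes. Oas1a, Parp12, Mx1, Ifi204 and Dhx58 were higher, 5 of 46 against 14.6% of all genes. Ifit1, Ifit2, Ifi208 and Ifi213 were lower, 4 of 46 against 2.56%, and 7 of 46 against 3.9% with TMM scaling. Oas1g, Oas2 and Ifi44 had too few UMIs in T cells. The make-up of the class differed between these libraries: Nai Cd4 cells were 47.9% of T cells in young WT and 27.6% in aged WT, and Mem Cd4 cells 10.8% and 29.2%. With the 4 naive and memory types weighted by their share in aged WT, 5 members were higher, against 11.8% of all genes, and 4 lower, against 2.64%. The list ratio was then 0.912. Within types it was 1.05 in Nai Cd4, 0.812 in Mem Cd4, 0.865 in Nai Cd8 and 0.989 in Mem Cd8 cells. Immediate early genes, which tissue dissociation induces, also moved with age, at 180.04, 414, 532 and 440.3 CPM in T cells, and their part in these values was not tested.

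Oas1a in T cells was at 3.38, 10.1, 20.8 and 12.3 CPM. Young WT was the lowest library and the miR-146a knockout the highest, with ratios of 2.98 (1.82 to 4.99) for age, 2.06 (1.42 to 3.02) for the knockout and 0.591 (0.418 to 0.833) for the double against the single knockout. Parp12, an ADP-ribosyltransferase, was at 3.26, 9.64, 15.7 and 8.32 CPM, also lowest in young WT and highest in the miR-146a knockout. Mx1, with 50 UMIs in T cells over the 4 libraries, was at 1.25, 4.16, 3.55 and 1.39 CPM. Ifi204, a DNA sensor most abundant in myeloid cells, was at 0.501, 2.19, 5.83 and 6.14 CPM in T cells and at 0.391, 0.349, 0.644 and 1.18 CPM in B cells. Monocyte marker genes summed to 42.1, 72.1, 180 and 130 CPM in T cells, and their part in the Ifi204 level was not tested. In B cells, by contrast with T cells, Oas1a was highest in young WT.

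Ifit1 in T cells was at 42.3, 28.0, 19.5 and 31.3 CPM, highest in young WT and lowest in the miR-146a knockout. Ifit3 was at 19.4, 21.5, 17.5 and 24.6 CPM and Rsad2 at 4.76, 3.29, 3.29 and 5.55 CPM. The double knockout was above the single knockout for Ifit1 (ratio 1.61, 1.21 to 2.14). Usp18 was at 23.7, 19.9, 11.9 and 13.1 CPM, so both knockouts were below both WT libraries, with a ratio of 0.597 (0.411 to 0.858) for the miR-146a knockout against aged WT. Its partner Isg15 was at 54.1, 58.3, 67.1 and 70.1 CPM, with the knockouts above the WT libraries.

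Ifi208 stood out in T cells as it did in B cells. It was at 65.2, 25.2, 8.36 and 14.1 CPM, with ratios of 0.386 (0.313 to 0.474) for age and 0.332 (0.218 to 0.492) for the miR-146a knockout. Within types, Nai Cd4 cells held 75.3, 24.0, 7.90 and 13.4 CPM and Mem Cd4 cells 54.6, 3.01, 1.49 and 2.86 CPM. Nai Cd8 cells held 63.6, 39.8, 23.2 and 21.99 CPM. In each of these 3 types young WT was the highest library. The age ratio was 0.0551 (0.0109 to 0.172) in Mem Cd4 cells, which rests on 3 UMIs in aged WT, and 0.625 (0.424 to 0.901) in Nai Cd8 cells. Ifi213 was at 43.2, 22.4, 22.04 and 20.01 CPM in T cells, again highest in young WT.

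**Figure D3:**
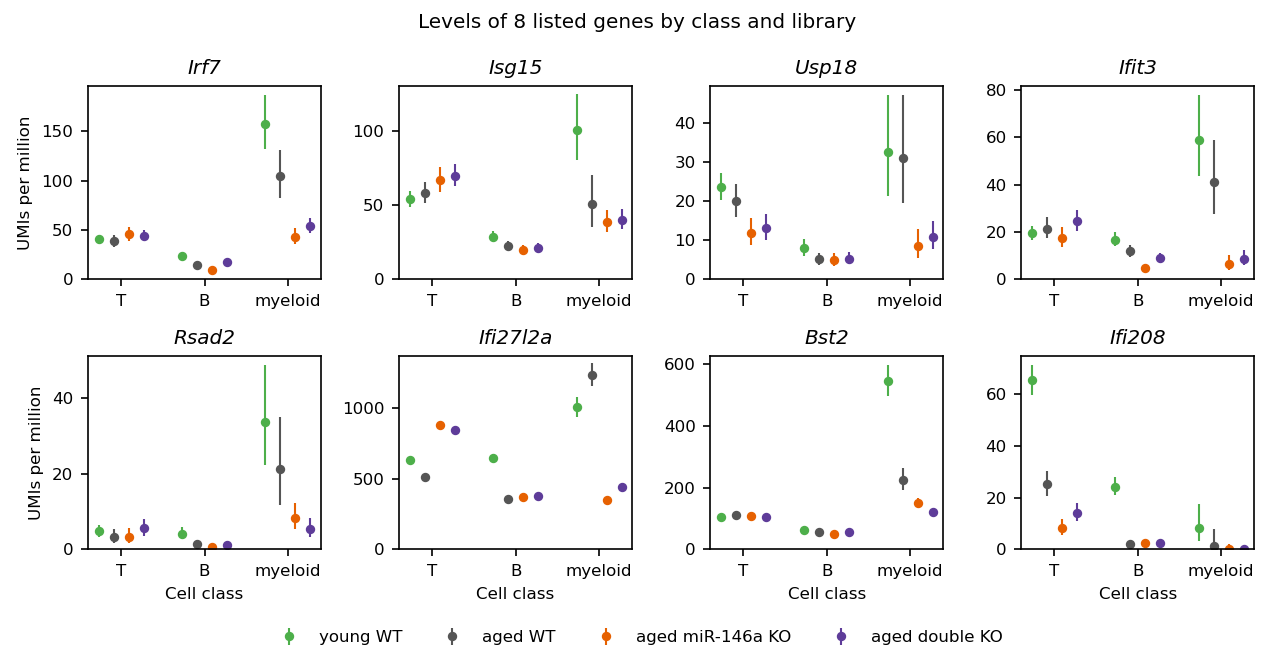
Level (CPM) of 8 members in T, B and myeloid cells of each library, with exact Poisson intervals. Ifi208 is highest in young WT in T and B cells, Ifi27l2a in T cells is highest in the miR-146a knockout (879 CPM), and Bst2 in myeloid cells is highest in young WT (546 CPM).

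In the miR-146a knockout, the list in T cells was at a ratio of 1.18 (1.15 to 1.21) to aged WT. Ifih1, Oas1a, Ifi27l2a, Parp12 and Ifi204 were higher, 5 of 46 against 8.94% of all genes, and Usp18, Oasl1 (with an interval that crossed 1) and Ifi208 were lower, 3 of 46 against 5.32%. Both shares were near those of all genes, and the median log2 ratio was 0.08 for members and 0.05 for all genes. Ifi27l2a carried much of the sum. It was at 631, 509, 879 and 845 CPM, a ratio of 1.73 (1.64 to 1.82), so over the whole class both knockouts were above both WT libraries. In Nai Cd4 cells it was at 687, 602, 1187 and 957 CPM, in Mem Cd4 cells at 1458, 1160, 1415 and 1678 CPM, and in Nai Cd8 cells at 444, 245, 273 and 322 CPM. The difference between aged WT and the miR-146a knockout was thus larger in Nai Cd4 cells than in Nai Cd8 cells in these libraries, and was not tested. In Mem Cd4 and Nai Cd8 cells young WT was above the miR-146a knockout. Levels of this gene in Mem Cd8 cells are not given here. The ratio of the whole list was 1.15 in Nai Cd4, 1.10 in Mem Cd4, 1.12 in Nai Cd8 and 1.20 in Mem Cd8 cells. Without the 5 most abundant members the list ratio was 1.07. The make-up of the class differed here too. Mem Cd4 cells were 29.2% of T cells in aged WT and 40.7% in the miR-146a knockout, and Nai Cd8 cells 14.9% and 6.14%. With the types weighted by their share in aged WT the list ratio was 1.14. The part of the mix in the Ifi27l2a ratio was not tested. Granulocyte marker genes summed to 10.9, 18.8, 669 and 757 CPM in T cells, high in both knockouts, and their part in these ratios was not tested.

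The double knockout had a list ratio of 0.961 (0.941 to 0.983) to the miR-146a knockout in T cells, the cells in which miR-155 was deleted. Ifit1, Rsad2, Ifi208 and Phf11d were higher, 4 of 46 against 3.7% of all genes, and Oas1a, Ifit3b, Mx1 and Parp12 lower, 4 of 46 against 6.54%. The interval crossed 1 for Rsad2, Phf11d, Ifit3b and Mx1. The median log2 ratio was −0.07 for members and −0.04 for all genes. When immunoglobulin, mitochondrial and ribosomal protein genes were left out of the total, the list ratio was 1.01, so its direction depends on the total. Against aged WT, the double knockout had 4 members higher (4.77% of all genes) and 5 lower (4.33%), with a list ratio of 1.13.

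Myeloid cells had the highest list level in young WT and the largest difference between aged WT and the knockouts. The aged to young WT ratio was 0.883 (0.843 to 0.925). Lower members numbered 11 of 41, against 13.3% of all 8001 genes, and Ddx58 (the RNA sensor RIG-I) was the 1 higher member, against 11.4%. The interval crossed 1 for Ddx58 and, among the lower members, for Oas3, Rsad2 and Isg20. Immediate early genes summed to 392, 709, 334 and 279 CPM in myeloid cells, and their part in the age ratio was not tested. The median log2 ratio was −0.28 for members and −0.01 for all genes. The mix of types differed here too, with DC/Mac cells 47.5% of the class in young WT and 23.0% in aged WT. With Ly6c+ Mono, Ly6c- Mono and DC/Mac cells weighted by their share in aged WT, the age ratio of the list was 0.770. Oas1g, Oas2, Oasl1, Ifit2, Ifit3b, Mx1, Ifi44 and Ifi208 had too few UMIs in these cells to be counted.

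Bst2 (tetherin), which holds budding virus at the cell surface and is a marker of plasmacytoid dendritic cells in mice, was at 546, 226, 151 and 121 CPM in myeloid cells. Its age ratio was 0.414 (0.343 to 0.496), and young WT was above the 3 aged libraries. In DC/Mac cells alone it was at 816, 435, 481 and 459 CPM. Marker genes of plasmacytoid dendritic cells, 5 of 5 found, summed to 532, 77.7, 89.1 and 83.2 CPM in myeloid cells, with Siglech at 206, 21.2, 34.3 and 17.9 CPM. Klk1 was at 0 in aged WT. These markers moved with Bst2, and their part in its level was not tested. Fewer such cells and less RNA per cell cannot be told apart in a class sum.

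Irf7 in myeloid cells was at 158, 105, 43.4 and 54.1 CPM, an age ratio of 0.663 (0.492 to 0.888). Isg15 was at 101, 50.9, 38.8 and 40.3 CPM, an age ratio of 0.503 (0.331 to 0.752). Both were highest in young WT. Ifi27l2a went the other way between the WT libraries, at 1003, 1229, 349 and 439 CPM, with an age ratio of 1.23 (1.11 to 1.35). Without the 5 most abundant members, Ifi27l2a among them, the age ratio of the list was 0.718.

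In the miR-146a knockout the list in myeloid cells was at 0.510 (0.489 to 0.532) of aged WT. Lower members numbered 29 of 41 against 33.2% of all genes, and Ifit1bl1 alone was higher, against 8.39%, with an interval that crossed 1. It crossed 1 also for 7 of the lower members, Stat2, Herc6, Ddx58, Ifih1, Oasl2, Ifit1 and Phf11d. The median log2 ratio was −0.88 for members and −0.38 for all genes. Ifit3 was at 59.0, 41.0, 6.59 and 8.80 CPM, a ratio of 0.161 (0.0852 to 0.297). Ifi204 was at 142, 160, 56.9 and 46.4 CPM, Slfn5 at 104, 89.0, 28.8 and 36.3 CPM, and Samhd1 at 515, 557, 274 and 268 CPM. Each of these 4 genes had both WT libraries well above both knockouts. Slfn2, a regulator of cell quiescence, was at 408, 394, 376 and 354 CPM, close over the 4 libraries.

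The mix of myeloid types differed between these libraries. Granulocytes were 16.6%, 8.38%, 41.0% and 50.2% of myeloid cells, and Ly6c+ monocytes 23.8%, 39.8%, 10.9% and 11.5%. DC/Mac cells were 47.5%, 23.0%, 22.1% and 15.8%. Granulocyte marker genes summed to 3347, 13693, 150294 and 182065 CPM in the class. They belong to the total by which CPM is scaled, and their part in the ratios of other genes was not tested. Without granulocytes, an alternative chosen after seeing the data, the ratio of the miR-146a knockout to aged WT was 0.656, 16 members were lower against 11.6% of all genes, and the median log2 ratio was −0.50 for members and −0.01 for all genes. With the 3 types that held at least 20 cells in both libraries (Ly6c+ Mono, Ly6c- Mono and DC/Mac, so again without granulocytes) weighted by their share in aged WT, the ratio was 0.784. Then 10 of 41 members were lower, against 16.8% of all genes. TMM scaling, which sets the bulk of genes equal, gave 0.641 and 18 lower members, against 14.6% of all genes. The difference in the list sum was smaller under each of these 3 settings, and its direction was the same.

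Ly6c+ monocytes, the classical blood monocytes, number 53, 76, 78 and 106 cells and allow the members to be read within 1 type. Irf7 was at 322, 171, 68.0 and 122 CPM there, Ifit3 at 151, 79.5, 8.002 and 20.02 CPM, and Isg15 at 197, 73.6, 36.0 and 93.4 CPM. Each was highest in young WT and lowest in the miR-146a knockout. The ratio of the miR-146a knockout to aged WT was 0.101 (0.0256 to 0.289) for Ifit3, and the ratio of the double to the single knockout was 2.59 (1.503 to 4.69) for Isg15. Ifi27l2a was at 2301, 2081, 1310 and 1678 CPM, Ifi204 at 397, 306, 222 and 177 CPM, and Slfn5 at 251, 162, 86.0 and 128 CPM. Of these 6 genes, Ifi204 was the one in which the double knockout was below the single knockout.

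Over the whole myeloid class the double knockout was at 1.04 (1.01 to 1.07) of the miR-146a knockout. Ifi213 was higher, 1 of 41 against 2.22% of all genes, and Rsad2 lower, 1 of 41 against 6.69%, both with intervals that crossed 1. Without the 5 most abundant members the ratio was 0.998. Without granulocytes it was 1.20 and 11 members were higher, against 5.72% of all genes. Against aged WT, which both knockouts share as reference, the double knockout had 29 members lower (43.1% of all genes) and 1 higher, Slfn1 (7.74%). The list ratio there was 0.531.

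List UMIs were spread unevenly over lymphocytes. Each annotated cell with at least 1000 UMIs was thinned to 1000, which left out 23, 15, 66 and 24 T cells and 28, 7, 28 and 17 B cells, and the list's UMIs were counted in it. Their variance over cells was 3.23, 2.41, 2.61 and 3.54 times their mean in T cells and 2.98, 2.36, 2.03 and 2.23 times in B cells, where independent molecules would give about 1. In B cells 3.95% (3.31 to 4.68), 1.64% (1.26 to 2.11), 1.10% (0.729 to 1.60) and 1.51% (1.12 to 1.98) held at least 10 list UMIs. Young WT was above the 3 aged libraries, whose intervals overlapped. Without thinning the shares were 21.9%, 14.4%, 20.5% and 15.3%, in another order, since cells of the libraries differ in depth. The limit of 10 UMIs marks a range and not a cell type: in B cells 43, 18, 13 and 24 cells held 9 list UMIs and 35, 10, 7 and 13 held 10.

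In T cells the thinned shares were 3.12%, 2.47%, 3.31% and 4.13%, and 31.5%, 26.9%, 37.6% and 27.8% without thinning. The order of the knockouts differed from that of their CPM, so no order was read from it. Mem Cd4 cells held 7.82% (5.07 to 11.4), 3.37% (1.97 to 5.34), 4.74% (3.17 to 6.77) and 5.54% (3.95 to 7.52). Trans B cells held 8.37% (5.87 to 11.5), 2.40% (1.04 to 4.66), 4% (2.01 to 7.04) and 4.13% (2.33 to 6.72). Without thinning these were 43.3%, 23.8%, 34.7% and 26.7% for Mem Cd4 and 34.5%, 20.1%, 30.9% and 22.5% for Trans B. In both types young WT was highest by either count, and its thinned interval overlapped those of both knockouts. In Mem Cd4 cells it overlapped that of aged WT too. Ly6c+ monocytes had the highest thinned shares, at 30.2% (18.3 to 44.3), 21.1% (12.5 to 31.9), 7.69% (2.88 to 15.99) and 13.2% (7.41 to 21.2), and 92.5%, 88.2%, 88.5% and 91.5% without thinning. NK cells were at 0.893% in young WT. In the aged libraries 0 of 97, 49 and 71 NK cells reached 10, which by the limit of 3 counts allows shares of up to 3.09%, 6.12% and 4.23%.

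**Figure D4:**
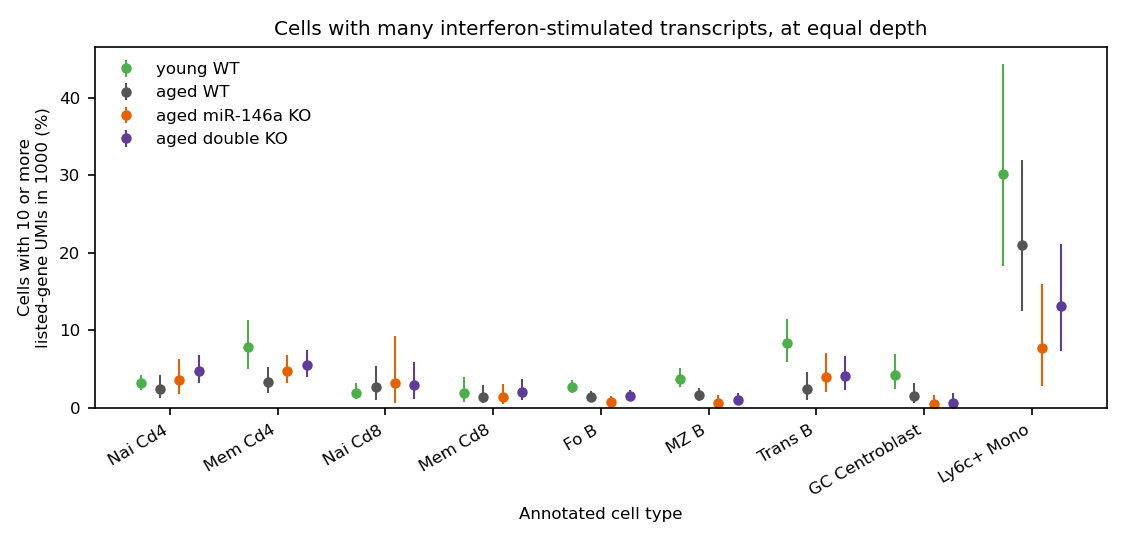
Share of cells (percent, exact binomial intervals) with at least 10 UMIs of the list among 1000 UMIs per cell, by cell type and library. Ly6c+ monocytes of young WT are highest (30.2%). Shares of Trans B and Mem Cd4 cells are highest in young WT, with intervals that overlap those of both knockouts. In Mem Cd4 cells the interval of aged WT overlaps too.

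UMIs of some rarer members lay in cells with more of the rest of the list. T cells with a UMI of Ifit3 (50, 24, 23 and 40 cells) carried on average 6.32, 6.88, 4.26 and 6.98 UMIs of the members outside the 5 most abundant, Ifit3 itself left out, against 1.43, 1.33, 1.46 and 1.37 in T cells without one. The ratios were 4.41, 5.19, 2.91 and 5.10. For Isg15, counted the same way, they were 2.83, 2.81, 1.88 and 3.13 in T cells and 3.44, 2.75, 2.32 and 2.69 in B cells. The miR-146a knockout had the lowest of these ratios in both classes. For Sp100 they were 1.14, 0.993, 1.13 and 1.28 in T cells, near 1, so that its UMIs were spread over cells with and without the rest of the list. These are descriptions over cells of 1 library each, at equal depth, and carry no test.

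**Figure D5:**
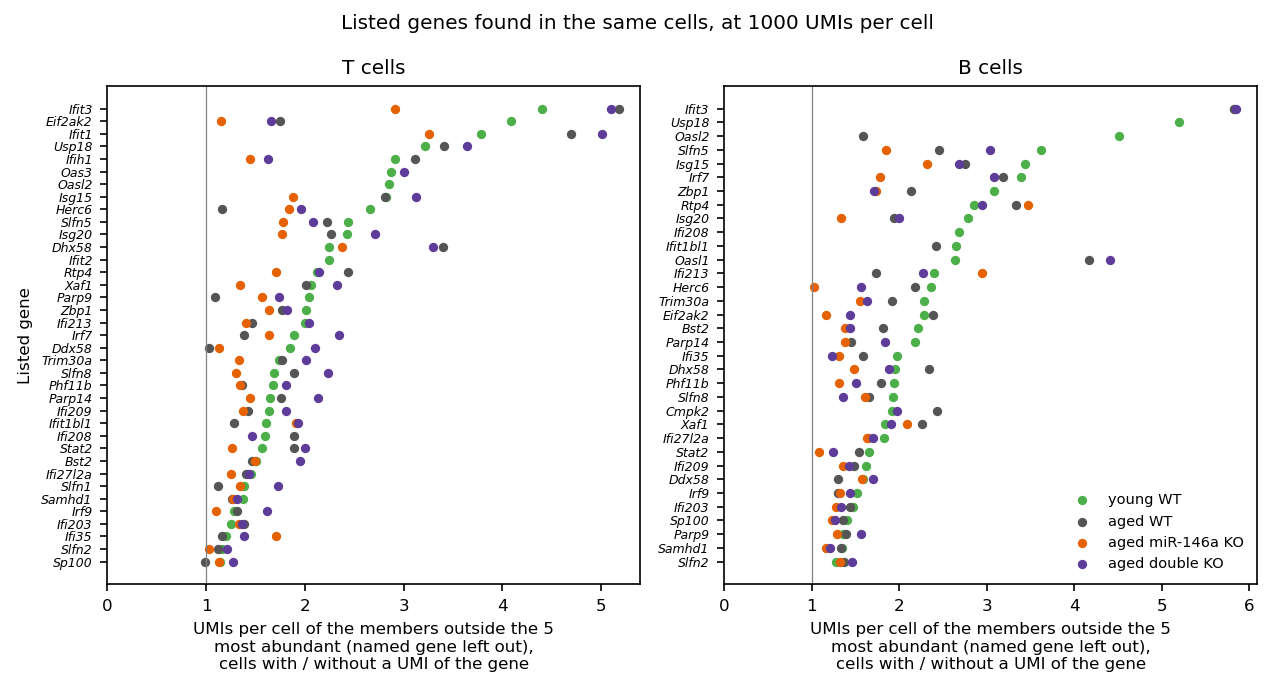
Ratio of the mean UMIs of the members outside the 5 most abundant, the named gene left out, in cells with a UMI of that gene to cells without one, at 1000 UMIs per cell, for T and B cells of each library. Ifit3 is far above 1 in T cells (2.91 to 5.19), whereas Sp100 is near 1 (0.993 to 1.28).

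The wider pathway was read from separate gene lists. Of 19 interferon ligand genes, only Ifng passed the filter, in T cells, and none of the others had a UMI in T, B or myeloid cells of any library, a count that allows up to 3 UMIs in each. Ifng, the type II ligand made by activated T and NK cells, was at 3.38, 11.6, 34.7 and 17.2 CPM in T cells, with ratios of 3.44 (2.12 to 5.68), 2.99 (2.16 to 4.18) and 0.497 (0.375 to 0.655) for age, miR-146a knockout and double against single knockout. Young WT was the lowest library and the miR-146a knockout the highest.

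Ifnar1, a chain of the type I receptor, was at 66.6, 74.3, 73.5 and 59.0 CPM in T cells and at 68.3, 65.5, 52.1 and 58.4 CPM in B cells. Between aged and young WT B cells, 0 of 7 receptor and kinase genes, 0 of 7 signalling factors and 0 of 9 sensing genes were called, where 3.89% of all genes were higher and 3.1% lower. Of 4 brake genes, Socs3, an inhibitor of cytokine receptors, was higher, from 4.30 to 18.6 CPM. In T cells the same comparison called 3 of 7 factors, 1 of 8 sensing genes and 2 of 4 brake genes higher, where 14.6% of all genes were. Of 7 receptor and kinase genes it called 1 in each direction, where 2.56% of all genes were lower. Between aged and young WT myeloid cells, 4 of 7 sensing genes and 2 of 4 brake genes were higher, where 11.4% of all genes were. There 2 of 7 factors were lower, where 13.3% of all genes were. In myeloid cells of the miR-146a knockout 33.2% of all genes were lower than in aged WT. So were 3 of 7 receptor and kinase genes, 4 of 7 factors, 3 of 7 sensing genes and 1 of 4 brake genes. Of the sensing genes 1 was higher, where 8.39% of all genes were. Irf8, a factor of monocyte and dendritic cell development, was at 806, 380, 202 and 218 CPM in myeloid cells. The part of the mix of myeloid types in its level was not tested.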

How the data were processed

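The authors deposited raw counts of UMIs per gene and barcode, made with Cell Ranger 3.0.0 on mm10 per the submitters' processing notes. They also deposited a cell type name per barcode (unit: other), without a stated method of naming. Per the labels' protocols the chemistry is named both 3' and 5'. Cells without a name were left out.

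For each gene, UMIs were summed within a class or type of 1 library and scaled to CPM by the total UMIs of that class or type. Levels have exact Poisson intervals, ratios conditional binomial intervals and shares Clopper-Pearson intervals, all at 95% and for counting error only. UMIs count molecules, so CPM is not scaled by gene length. The T class joined Early Act Cd8 with the naive (Nai) and memory (Mem) Cd4 and Cd8 types, and the B class joined GC Centrocyte and GC Centroblast with Trans B, MZ B and Fo B. The myeloid class joined DC/Mac, Gran and both Mono types. NK cells were kept apart, and T/B dbl cells entered no class. A gene was called at 1.5-fold with 1 UMI added to each sum and at least 50 UMIs in the class over the 4 libraries. Doublets were not called here, and no label says whether they were removed before deposit.

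Up to 4 members per direction, class and comparison were named, ranked by the bound of the interval nearest to 1, and further members were named for their role. The types in which single genes are given were chosen after their values were seen. The members, the marker lists and the pathway lists were chosen with earlier results of these data known, among them lower interferon-response genes in aged WT B and myeloid cells. The age comparison and the knockout comparison share the aged WT library, and both comparisons of the single knockout share that library. Alternatives were TMM scaling (edgeR 4.0.16, R 4.3.3), a filter of 200 UMIs or none, a total without immunoglobulin, mitochondrial and ribosomal protein genes, the mean over cells, the aged WT mix of the types with at least 20 cells in both libraries, and the list without its 5 most abundant members. The script for ratios and calls was tested on simulated data for aged against young WT B cells. Promoter windows came from RefSeq for GRCm38.p6. Thinning used 1 fixed random draw. Python 3.11.15, NumPy 2.4.6 and SciPy 1.17.1 were used.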

Additional observations from a re-analysis of the deposited data

How the results depend on the processing

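With 1 library per group no replicate could be left out. No paired analysis was possible because each group has a single library. Ratios of the summed list are given first, in the order of the comparisons aged to young WT, miR-146a knockout to aged WT, and double to single knockout. In T cells (0.962, 1.18, 0.961) the mean over cells gave 0.996 and 1.15, the aged WT mix 0.912 and 1.14, and the list without its 5 most abundant members 1.07 for the miR-146a knockout. The total without immunoglobulin, mitochondrial and ribosomal protein genes gave 0.896, 1.10 and, reversed, 1.01, and TMM 0.893, 1.14 and 0.985. In B cells (0.815, 0.860, 1.08) the list without its 5 most abundant members gave 0.846 for age and 1.11 for the double knockout, and for the comparisons of the knockouts the other total gave 0.887 and 1.06 and TMM 0.885 and 1.06. In myeloid cells (0.883, 0.510, 1.04) the mean over cells gave 0.798 and 1.11 for age and double knockout, the aged WT mix 0.770, 0.784 and 1.14, the list without its 5 most abundant members 0.718, 0.558 and, reversed, 0.998, the other total 0.464 for the miR-146a knockout, TMM 0.641 and 1.11, and the class without Gran cells, chosen after seeing the data, 0.656 and 1.20 for the knockouts. In these ratios the cause was not tested.

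Counts of called members moved mostly with the filter. With 200 UMIs, which leaves fewer genes, higher and lower counts in T cells were 2 (age, higher), 3 (knockout, higher), and 2 and 1 (double knockout), in B cells 8 (age, lower), 0 and 4, and 3 and 0, and in myeloid cells 0 and 4, 0 and 14, and 0 and 0. With no filter they were 6 (B, knockout, higher), 2 (B, double knockout, lower), and in myeloid cells 2 and 17, 2 (higher), and 4 and 2. TMM gave 7 lower in T cells with age, 18 lower in myeloid cells of the knockout, and 2 higher and 0 lower in the double knockout. The aged WT mix gave 2 higher in T cells and 0 lower in B cells of the double knockout, and in myeloid cells 10 lower in the knockout and 4 higher in the double knockout. Without Gran cells these myeloid counts were 16 and 11. TMM factors in myeloid cells ran from 0.847 to 1.16, so that this scaling moves all ratios of the knockouts to aged WT upward, and in T cells (0.934 in young and 1.01 in aged WT) it moves the age ratios downward. Identity between the proteins of related members was planned and not run.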

Other observations

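Barcodes to which the authors gave no cell type name (805, 1056, 870 and 703 in young WT, aged WT, miR-146a knockout and double knockout) held the list at 2577, 1747, 1612 and 1501 CPM. Young WT was the highest there. Their median depth differed, at 708, 1460, 2438 and 2632 UMIs, and its part in these levels was not tested. These barcodes entered no comparison.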
